A study of Mus musculus with 11 samples.

Results

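The circadian clock genes Per1, Per2, Per3, Arntl (also written Bmal1), Clock, Nr1d1, Nr1d2, Dbp, Tef and Bhlhe40 were followed by symbol through RNA sequencing of mouse soleus and quadriceps. All 10 listed genes were found in both muscles, among 13121 genes measured in soleus and 12366 in quadriceps. Soleus, which holds posture and has many slow fibres, was represented by 4 libraries labelled Myc overexpression and 3 labelled control, and quadriceps, a mostly fast muscle, by 2 Myc-labelled and 2 control libraries. All animals were 2.5 months old. The Myc-labelled animals received doxycycline overnight, which switches on Myc through a tetracycline system, and tissue was taken 12 hours after the drug was stopped. Controls were matched for age. No label gives the promoter or cell type that drives the system, the controls' genotype, whether controls received doxycycline, or the hour of day at which any muscle was taken. The same replicate numbers recur in both muscles, and no label says whether equal numbers mark 1 animal. Nothing says that replicates came from separate animals, so p-values measure only the spread between these samples.

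The clock is a transcriptional loop that runs in almost every cell, muscle fibres included. CLOCK and BMAL1 (the product of Arntl) pair and bind E-box sequences to switch on the Per and Cry genes, whose proteins then shut CLOCK and BMAL1 off. A second loop runs through the REV-ERB receptors (Nr1d1 and Nr1d2), which repress Arntl, and the ROR receptors, which activate it, and the output factors DBP and TEF act on D-box sequences. In mice the transcripts of Arntl peak at roughly the opposite time of day from those of Nr1d1 and Dbp. MYC, paired with MAX, also binds the E-box, and in human cancer cell lines it has been reported to raise REV-ERB genes and lower BMAL1.

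Values are normalised read counts: reads per gene divided by 1 size factor per library. Estimated depth was 11.1 to 14.9 M reads per soleus library and 14.2 to 18.4 M per quadriceps library. The Myc row did not separate the groups in soleus, with 26.3 to 31.0 in Myc-labelled and 28.2 to 54.3 in control libraries, nor in quadriceps, with 86.4 and 33.6 in Myc-labelled and 114 and 55.7 in control libraries, so every direction is drawn from the labels. All 10 ribosome biogenesis genes used as a second check rose in soleus (limma), beside 7.06% of all genes tested. Gnl3 rose there by a log2 change of 2.37 (SE 0.13, adjusted p = 2.1e-08). In quadriceps limma called 0 of the 10, beside 0.00815% of all genes higher. All 10 were higher there at an unadjusted p under 0.05, where 3.97% of all genes were. In soleus the summed level of 7 tendon markers was 2006 and 3172 in Myc-labelled replicates 3 and 4 and 6061 to 6799 in the other Myc-labelled libraries, against 6711 to 8277 in controls. In quadriceps the summed level of 8 slow fibre markers was 1795 and 2844 in Myc-labelled libraries and 25843 and 188533 in control libraries. Fibre markers (Acta1, Ckm, Des and Ttn) summed to 802916 to 873319 in Myc-labelled and 922153 to 998504 in control soleus, and to 987797 and 1288688 in Myc-labelled and 1157166 and 1232646 in control quadriceps.

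In soleus, Per3 and Bhlhe40 fell in the Myc-labelled libraries, to about 0.66 and 0.58 of the control level, and no clock gene rose (limma on log2(value + 1), Benjamini-Hochberg adjusted p under 0.05 over 12745 genes). So 2 of 10 clock genes fell and 0 of 10 rose, where 2.23% of all genes tested fell, 7.06% rose and 9.29% changed in either direction. At an unadjusted p under 0.05, 6 of 10 were lower, namely Bhlhe40, Dbp, Nr1d2, Per2, Per3 and Tef, where 8.77% of all genes were lower. None was higher at that level, where 12.9% of all genes were. The median log2 change of the 10 genes was -0.40, beside -0.03 over all genes tested. All 10 passed the filter on low values, and none came below 14.8 in any library. In whole muscle, fewer cells of a type and less RNA per cell cannot be told apart.

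In quadriceps 0 of 10 clock genes passed the adjusted threshold with limma, and limma-voom also called 0. Over all 12270 genes tested limma called 1, which was higher (0.00815%), and none lower (0%). At an unadjusted p under 0.05, 5 of 10 clock genes were lower, namely Dbp, Bhlhe40, Nr1d1, Per2 and Per3, where 2.24% of all genes were, and none was higher, where 3.97% of all genes were. The groups did not overlap, with Myc-labelled libraries lower, for 6 of 10 clock genes in quadriceps, where 16.9% of all genes did so, and for 2 of 10 in soleus, where 8.35% did. The median log2 change of the 10 genes was -0.42, beside -0.03 over all genes. The same 8 genes (all but Clock and Per1) had a mean log2 change below 0 in both muscles. Of all genes tested, 54.4% were below 0 in soleus and 54.2% in quadriceps, each muscle taken alone. The share of all genes below 0 in both muscles together was not computed.

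**Figure D1:**
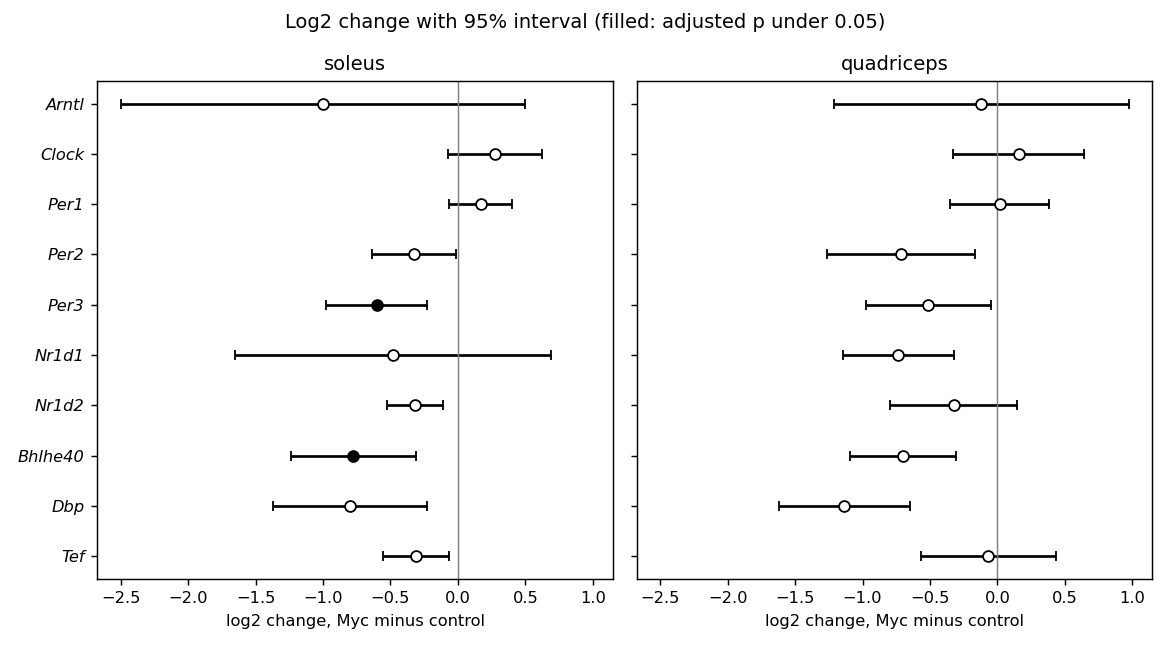
Log2 change of each clock gene (Myc-labelled minus control) with its 95% interval from limma, in soleus on the left and quadriceps on the right, filled where the adjusted p was under 0.05. Per3 and Bhlhe40 in soleus are the filled points, and Dbp in quadriceps has the lowest estimate, -1.13.

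Arntl, which encodes the activator BMAL1, varied within the groups by about as much as between them in soleus, and by more in quadriceps. In soleus it held 110.0, 66.1, 39.1 and 14.8 in Myc-labelled libraries, against 173, 72.8 and 62.2 in controls. The groups overlapped, and the highest and the lowest Myc-labelled library were 7.41-fold apart. The log2 change was -1.0 (SE 0.66, 95% interval -2.50 to 0.50, adjusted p = 0.43). The pooled SD within groups was 1.05 on the log2 scale, larger than in 96.1% of genes tested, whose median was 0.24. In quadriceps Arntl held 216 and 125 in Myc-labelled libraries, against 260.0 and 123 in controls. Within each quadriceps group the library numbered 1 was above the library numbered 2, and the change between groups was -0.12 (SE 0.44, 95% interval -1.21 to 0.97, adjusted p = 0.98). The sign of that change turned without Myc-labelled replicate 2 (0.27) or control replicate 1 (0.42).

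Clock, which encodes the partner of BMAL1, was measured at 580.2, 497, 377 and 401 in Myc-labelled soleus, against 454, 338 and 352 in control soleus. The groups overlapped, and the log2 change was 0.27 (SE 0.16, 95% interval -0.07 to 0.62, adjusted p = 0.36). In quadriceps it held 648 and 500.4 in Myc-labelled libraries, against 584 and 447 in controls, a log2 change of 0.16 (SE 0.21, adjusted p = 0.95). Here too the library numbered 1 was the higher of each pair. The quadriceps change was below 0 without Myc-labelled replicate 1 (-0.03) or control replicate 2 (-0.04).

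The Period genes encode the inhibitors of CLOCK and BMAL1. Per1 stood at 1922, 2023, 2628 and 2266 in Myc-labelled soleus and 1961, 1846 and 2047 in control soleus. The groups overlapped, with a log2 change of 0.17 (SE 0.11, 95% interval -0.06 to 0.40, adjusted p = 0.40). In quadriceps Per1 was within a narrow band in both groups, with 1149 and 1145 in Myc-labelled libraries and 1165 and 1105 in controls (log2 change 0.016, SE 0.16, adjusted p = 0.99). Without control replicate 2 that value was -0.023. Its pooled quadriceps SD, 0.04 on the log2 scale, was larger than that of only 2.75% of genes tested.

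Per2 was 381, 449, 537 and 438 in Myc-labelled soleus, against 502, 514 and 686 in control soleus. Myc-labelled replicate 3 lay among the controls, and the log2 change was -0.33 (SE 0.15, 95% interval -0.64 to -0.01, adjusted p = 0.21). In quadriceps Per2 held 206 and 316 in Myc-labelled libraries, against 441 and 399.8 in controls. These groups did not overlap, with a log2 change of -0.72 (SE 0.24, 95% interval -1.27 to -0.17, adjusted p = 0.62). That change was -1.03 without Myc-labelled replicate 2 and -0.41 without Myc-labelled replicate 1.

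Per3, the remaining Period gene, averaged 525 ± 77.6 in Myc-labelled soleus (SD, n = 4) and 807 ± 204 in control soleus (SD, n = 3). The Myc-labelled libraries held 418, 598, 523 and 560.1, against 581, 977 and 864 in controls, so control replicate 1 lay within the Myc-labelled range. Per3 fell by 0.60 on the log2 scale (SE 0.17, 95% interval -0.97 to -0.23, limma, adjusted p = 0.047). The call was at the edge of the threshold: it was lost in 10 of 18 alternatives, over which the log2 change ran from -0.82 to -0.45. The adjusted p was 0.094, 0.10 and 0.093 without Myc-labelled replicate 1, 3 or 4, and 0.19 and 0.16 without control replicate 2 or 3. It was 0.18 without both Myc-labelled replicates 3 and 4, which were low in tendon markers. The fall of Per3 was no smaller in that fit, where the Myc-labelled libraries left held 418 and 598. With fewer libraries, that fit called 624 genes in all, against 1184 in the main fit. In quadriceps Per3 held 415 and 464 in Myc-labelled libraries, against 536 and 732 in controls, a log2 change of -0.51 (SE 0.20, adjusted p = 0.75). No quadriceps libraries overlapped between groups. Without control replicate 2 the quadriceps change was -0.29.

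The 300 bases around the start site of Per3 (chr4:151044616-151044915, minus strand, RefSeq, build GRCm38.p6) are shown because they hold 2 copies of the D-box TTATGNAA, the sequence DBP and TEF bind, beginning 205 and 158 bases before the start. The D-box was searched on both strands, where N is any base, in windows of 250 bases before and 50 after each annotated start. It was found in 3.38% of 32851 windows, and 2 or more copies in 0.161%. The window of the upstream start of Per1 (chr11:69098699-69098998, plus strand) is shown beside it because it holds 1 E-box (CACGTG), 1 D-box and 1 copy of AGGTCA, letters that ROR and REV-ERB receptors bind, read here on the other strand as TGACCT, while the Per1 log2 changes were 0.17 in soleus and 0.016 in quadriceps. The E-box was in 7.15% of windows and AGGTCA in 16.3%. Capitals mark the motifs, and a match is a description of the letters only.
Per3 promoter: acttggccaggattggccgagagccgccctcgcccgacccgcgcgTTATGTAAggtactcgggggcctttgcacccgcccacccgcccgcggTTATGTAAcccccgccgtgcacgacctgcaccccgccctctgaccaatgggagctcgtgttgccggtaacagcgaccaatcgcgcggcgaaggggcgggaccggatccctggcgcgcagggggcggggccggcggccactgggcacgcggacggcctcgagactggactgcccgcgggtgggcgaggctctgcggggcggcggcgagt
Per1 promoter: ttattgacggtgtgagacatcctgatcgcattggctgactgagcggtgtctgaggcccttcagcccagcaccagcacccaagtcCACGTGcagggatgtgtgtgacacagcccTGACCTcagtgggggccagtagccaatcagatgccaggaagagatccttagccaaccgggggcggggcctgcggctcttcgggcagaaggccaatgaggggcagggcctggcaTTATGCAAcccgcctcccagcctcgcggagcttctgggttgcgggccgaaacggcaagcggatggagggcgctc

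**Figure D2:**
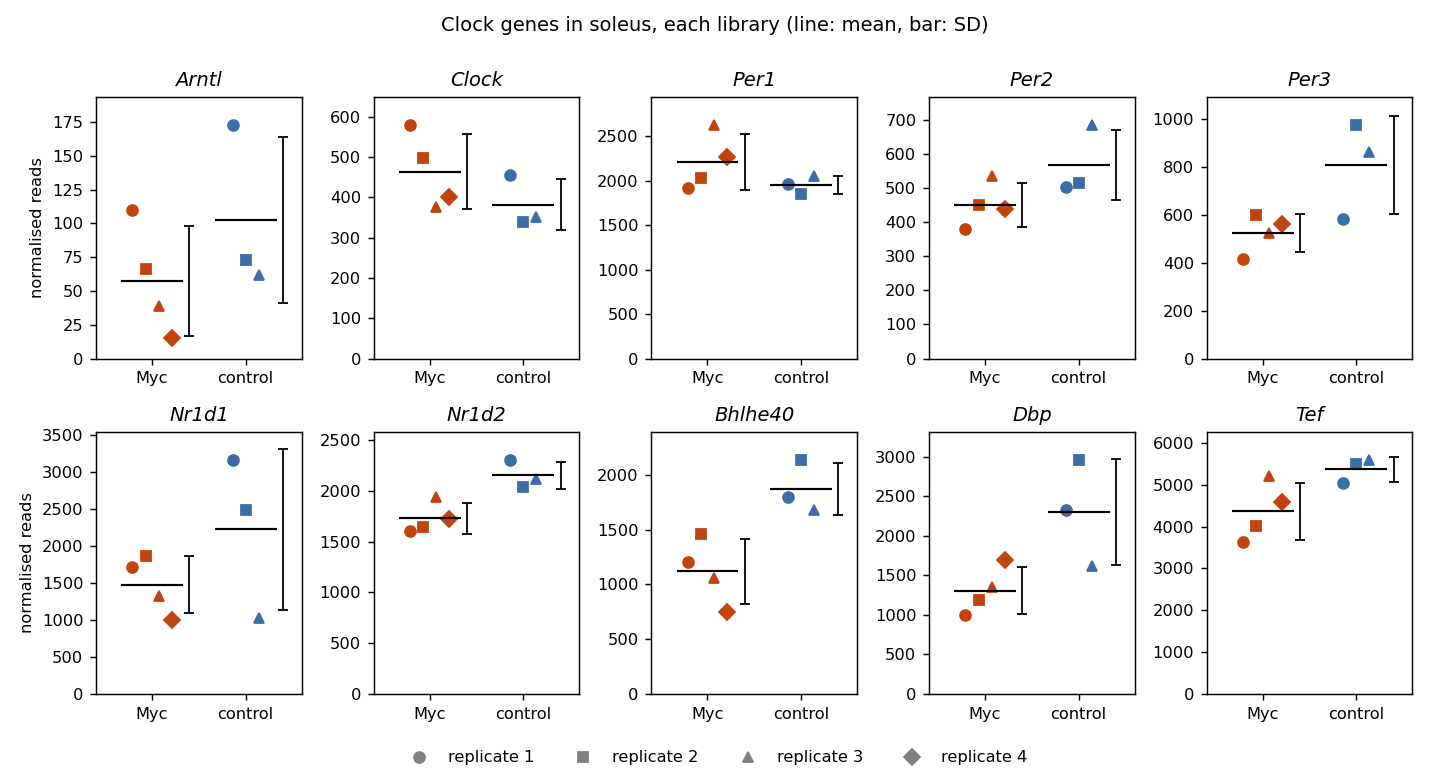
Normalised reads of each clock gene in the 4 Myc-labelled and 3 control soleus libraries, 1 panel a gene, with symbols for the replicate number, a line at the group mean and a bar for the SD. Bhlhe40 and Nr1d2 show no overlap between groups, while Arntl and Nr1d1 are spread widely within a group.

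Nr1d1 and Nr1d2 encode REV-ERB alpha and beta, the receptors that repress Arntl. Nr1d1 held 1709, 1869, 1328 and 1002 in Myc-labelled soleus, against 3158, 2487 and 1025 in control soleus. Control replicate 3 lay at the bottom of the Myc-labelled range and the other controls above it, and the log2 change was -0.48 (SE 0.46, 95% interval -1.65 to 0.69, adjusted p = 0.62). The value was -0.96 without control replicate 3 and -0.15 without control replicate 1. In quadriceps Nr1d1 held 753 and 943 in Myc-labelled libraries and 1362 and 1444 in controls, with no overlap and a log2 change of -0.73 (SE 0.18, 95% interval -1.15 to -0.32, unadjusted p = 0.0036, limma, adjusted p = 0.42). The annotated gene overlaps Thra, on the other strand. Since strand-specific counting is not stated, reads of the pair cannot be told apart where they overlap. Thra had a log2 change of -0.24 in soleus (adjusted p = 0.21) and -0.28 in quadriceps (adjusted p = 0.87).

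In soleus Nr1d2 was the steadier receptor gene. It held 1607, 1639.9, 1939 and 1722 in Myc-labelled soleus, against 2302, 2033 and 2115 in control soleus. All 4 Myc-labelled libraries lay below all 3 controls, and the log2 change was -0.32 (SE 0.10, 95% interval -0.53 to -0.11, adjusted p = 0.054). It was called under quantile normalisation (adjusted p = 0.015), with a minimum value of 50 (0.048), without Myc-labelled replicate 3 (0.025) and without both Myc-labelled replicates 3 and 4 (0.048). These were 4 of 18 alternatives (limma), and over all 18 the adjusted p of Nr1d2 ran up to 0.21. Its pooled soleus SD, 0.11 on the log2 scale, was larger than that of 11.1% of genes, and that of Nr1d1 was 0.62. The pooled quadriceps SD was 0.21 for Nr1d2 and 0.17 for Nr1d1. In quadriceps Nr1d2 held 2632 and 2719.9 in Myc-labelled libraries and 3868 and 2906 in controls, again with no overlap, and a log2 change of -0.33 (SE 0.20, adjusted p = 0.87). Without control replicate 1 it was -0.12.

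Bhlhe40, which encodes the E-box repressor DEC1, averaged 1118 ± 296 in Myc-labelled soleus (SD, n = 4) and 1870 ± 235 in control soleus (SD, n = 3). The Myc-labelled libraries held 1207, 1457, 1062 and 748, against 1796, 2134 and 1681 in controls, with no overlap. Bhlhe40 fell by 0.77 on the log2 scale (SE 0.20, 95% interval -1.24 to -0.31, limma, adjusted p = 0.047). Like that of Per3, the call stood at the threshold. It was lost in 9 of 18 alternatives, with a log2 change between -0.92 and -0.49. The adjusted p was 0.072 and 0.12 without Myc-labelled replicate 1 or 3, 0.12, 0.15 and 0.12 without control replicate 1, 2 or 3, and 0.054 without both Myc-labelled replicates 3 and 4. In quadriceps Bhlhe40 held 1493 and 1341 in Myc-labelled libraries and 2363 and 2238 in controls. These libraries did not overlap, and replicates lay close together, with a log2 change of -0.70 (SE 0.17, 95% interval -1.09 to -0.31, unadjusted p = 0.0034, limma, adjusted p = 0.41).

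**Figure D3:**
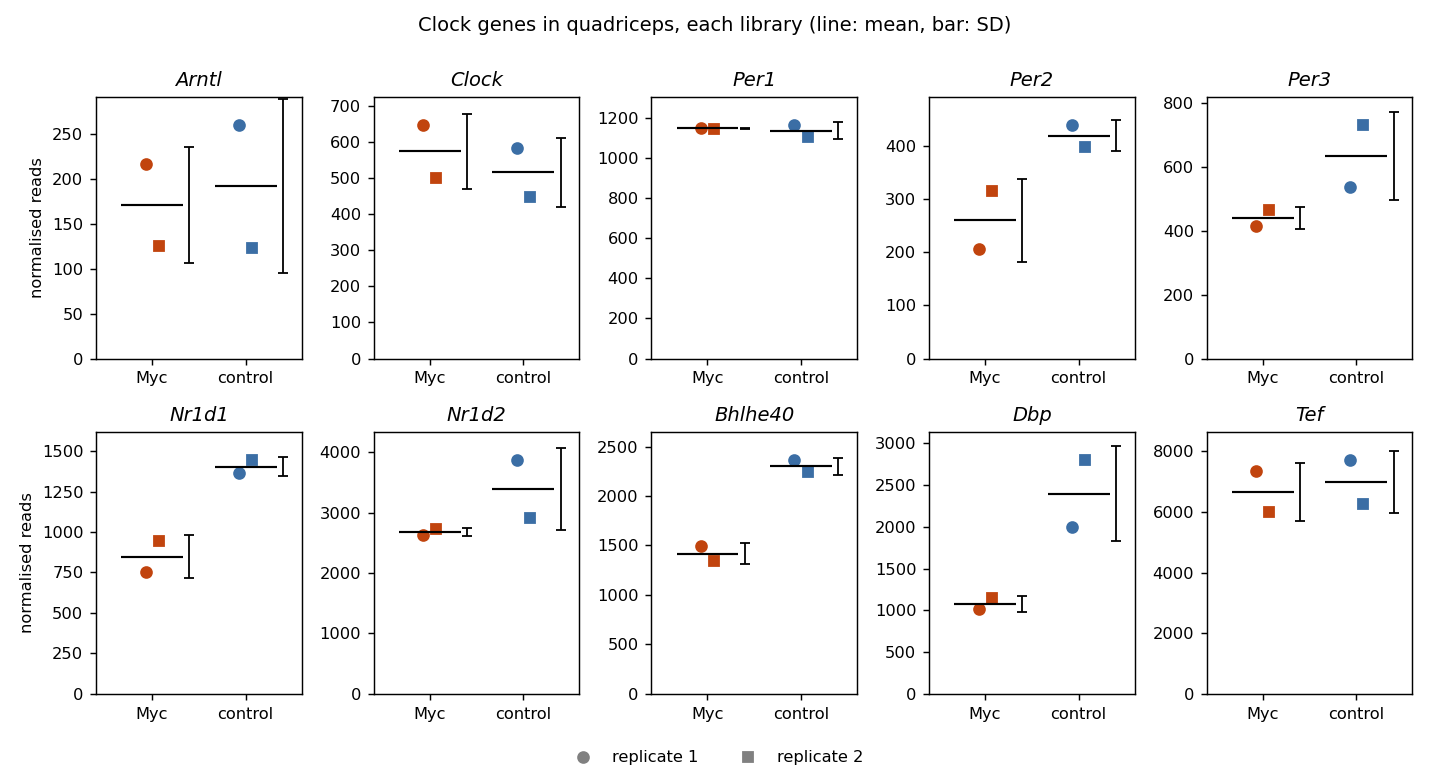
Normalised reads of each clock gene in the 2 Myc-labelled and 2 control quadriceps libraries, drawn as in soleus, with a line at the group mean and a bar for the SD. Dbp, Nr1d1, Nr1d2, Bhlhe40, Per2 and Per3 show no overlap between groups, and Per1 lies between 1105 and 1165 in all 4 libraries.

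Dbp, a D-box activator and one of the strongest rhythmic outputs of the clock, had the lowest estimate of the 10 genes in quadriceps. It held 1013 and 1148 in Myc-labelled quadriceps, against 2001 and 2801 in controls. Both Myc-labelled libraries lay below both controls. The log2 change was -1.13 (SE 0.21, 95% interval -1.62 to -0.65), which ranked 26 of 12270 genes by p, but the adjusted p was 0.33 (limma). Without Myc-labelled replicate 2, which leaves a single Myc-labelled quadriceps library, the log2 change was -1.22. In soleus Dbp held 996, 1187, 1352 and 1690.5 in Myc-labelled libraries, against 2324, 2961 and 1619 in controls. Only Myc-labelled replicate 4 and control replicate 3 crossed over. The log2 change there was -0.80 (SE 0.24, 95% interval -1.37 to -0.23, adjusted p = 0.098). Dbp was called in soleus without robust moderation (adjusted p = 0.022), without Myc-labelled replicate 4 (0.040) and without control replicate 3 (0.014). These were 3 of 18 soleus alternatives (limma), and over all 18 the adjusted p of Dbp ran up to 0.24. The annotated Dbp overlaps Sphk2 on the other strand. Sphk2 had the opposite sign, with log2 changes of 0.44 in soleus (adjusted p = 0.085) and 0.21 in quadriceps (adjusted p = 0.91), and was called in soleus without control replicate 1 (0.58, adjusted p = 0.035).

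Tef encodes a D-box activator related to DBP. It held 3643, 4014, 5211 and 4591 in Myc-labelled soleus, against 5037, 5487 and 5589 in control soleus. Only Myc-labelled replicate 3 reached the control range, and the log2 change was -0.31 (SE 0.11, 95% interval -0.55 to -0.07, adjusted p = 0.11). Without Myc-labelled replicate 3 it was -0.40 (adjusted p = 0.024), and without both Myc-labelled replicates 3 and 4 it was -0.49 (adjusted p = 0.014). Tef was called in 3 of 18 soleus alternatives (limma), and over all 18 its adjusted p ran up to 0.27. In quadriceps the groups overlapped, with 7338 and 5991 in Myc-labelled libraries and 7708 and 6276 in controls (log2 change -0.07, SE 0.22, adjusted p = 0.98). That value turned positive under quantile normalisation (0.025), without Myc-labelled replicate 2 (0.077) and without control replicate 1 (0.079). Both annotated Tef starts have an E-box within the promoter window, at 127 and 138 bases before the start. The first (chr15:81802423-81802722, plus strand, RefSeq, GRCm38.p6) is shown with that E-box in capitals, since Tef is the other member besides Per1 whose window holds those letters. The 8 clock genes matched in RefSeq had 13 windows, and Per2 and Bhlhe40 were not matched.
Tef promoter: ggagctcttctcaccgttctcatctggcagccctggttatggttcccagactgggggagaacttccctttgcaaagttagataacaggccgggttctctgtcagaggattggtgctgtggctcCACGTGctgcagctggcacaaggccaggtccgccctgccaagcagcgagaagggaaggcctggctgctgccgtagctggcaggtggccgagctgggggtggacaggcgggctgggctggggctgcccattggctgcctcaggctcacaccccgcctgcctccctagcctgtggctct

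The clock genes did not share 1 pattern over the soleus libraries. Control replicate 1 had the highest Arntl and Nr1d1, at 1.47 and 0.93 above their means on the log2 scale, while its Per3 was 0.10 below. Myc-labelled replicate 4 had the lowest Arntl, Nr1d1 and Bhlhe40, at -1.99, -0.72 and -0.87, but the highest Dbp of its group. Myc-labelled replicate 1 had the lowest Dbp, Per2, Per3, Nr1d2 and Tef of the 7 libraries and the highest Clock.

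**Figure D4:**
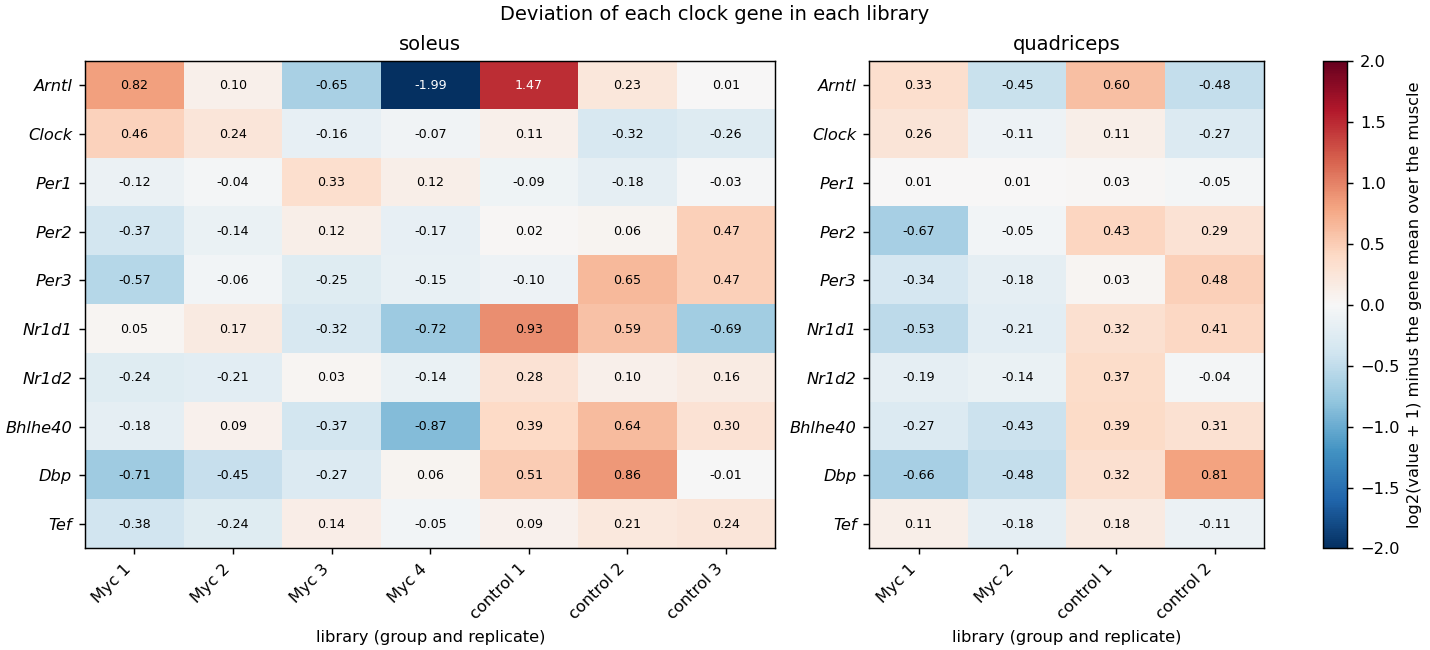
Deviation of each clock gene from its own mean over the libraries of a muscle, on the log2(value + 1) scale, with 1 column a library and the value printed in each cell. In soleus Arntl spans 1.47 in control replicate 1 to -1.99 in Myc-labelled replicate 4, and in quadriceps Dbp is below its mean in both Myc-labelled libraries and above it in both controls.

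Likeness was measured by the root mean square difference of centred log2 values over the 7 soleus libraries, among 12744 other genes. Those nearest to Arntl, whose own deviation was 1.02, were Strip2 (0.33), Gpr162 (0.37), Atp6v0a4 (0.38) and Mtmr11 (0.40). The nearest clock genes were Nr1d1, ranked 165 (0.68), and Bhlhe40, ranked 261 (0.73). The genes nearest to the mirror image of Arntl were Lrrc29 (0.44), Sptbn5 (0.51), Slc46a1 (0.53) and Kcnn3 (0.54). Most of these 8 genes were low, with means of 10.4 to 36.7 normalised reads apart from Mtmr11 at 90.8. Dbp, with an own deviation of 0.51, was nearest to Srd5a3 (0.19), Cep70 (0.20), Wtip (0.20) and Magi1 (0.21). Its nearest clock genes were Per3, ranked 229 (0.35), Tef, ranked 422 (0.38), and Nr1d2, ranked 568 (0.39). For Per3, with an own deviation of 0.39, the nearest were Ctsh (0.07), Cptp (0.11), A330094K24Rik (0.11) and 4931406C07Rik (0.13). Per3 overlaps Camta1 on the same strand, and Camta1, which ranked 1450 by likeness to Per3, had a log2 change of -0.12 in soleus (adjusted p = 0.55).

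The ratio of Dbp to Arntl was taken within a library, after 1 was added to both values. Apart from that 1, it does not depend on how the library was scaled. The added 1 counts most where Arntl is low, as in Myc-labelled soleus replicate 4 (14.8). In soleus it was 8.98, 17.7, 33.7 and 107 in Myc-labelled libraries, against 13.3, 40.2 and 25.6 in control libraries. On the log2 scale it averaged 4.78 ± 1.52 in Myc-labelled (SD, n = 4) and 4.58 ± 0.80 in control soleus (SD, n = 3), a difference of 0.20 that lay within the spread (exact permutation test, two-sided, p = 0.91). In quadriceps the ratio was 4.67 and 9.10 in Myc-labelled libraries and 7.67 and 22.6 in controls, a log2 difference of -1.01 (exact permutation test, two-sided, p = 0.67). Ratios of Nr1d1, Nr1d2, Per3 and Tef to Arntl were computed as well, 10 ratios in all over both muscles. None was shown to differ between groups, with unadjusted p of at least 0.51 and Benjamini-Hochberg adjusted p of at least 0.95 in exact permutation tests. The smallest p these tests allow is 0.057 in soleus and 0.33 in quadriceps.

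The change in Myc-labelled libraries was not found to differ between muscles for any clock gene (limma over all 11 libraries, 0 of 10 called and 0 of 10 at an unadjusted p under 0.05, beside 0% and 3.18% of 11971 genes). Limma-voom and library-size scaling also called 0 of 10. The soleus minus quadriceps difference in log2 change was 0.33 for Dbp (95% interval -0.48 to 1.15), -0.07 for Bhlhe40 (-0.72 to 0.57) and -0.09 for Per3 (-0.73 to 0.56). For Arntl it was -0.88 (-3.29 to 1.53) and for Nr1d1 0.25 (-1.21 to 1.71). Intervals of this width leave room for differences as large as the changes themselves. With Per2 at 0.39 (-0.20 to 0.99) and Nr1d2 at 0.01 (-0.39 to 0.41), the adjusted p was 0.999 for each of the 10 genes.

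Several other genes of the clock loop were also measured and did not pass the threshold. Bhlhe41, which encodes the E-box repressor DEC2, held 540, 614, 495 and 509 in Myc-labelled soleus and 776, 947 and 553 in control soleus (log2 change -0.46, adjusted p = 0.088). It was called without control replicate 3 (-0.67, adjusted p = 0.0054). Csnk1d, a kinase that marks PER proteins for turnover, held 1402 to 1473 in Myc-labelled and 1019 to 1292 in control soleus (log2 change 0.30, adjusted p = 0.081), and was called with library-size scaling (0.35, adjusted p = 0.035). Cry1 and Cry2, which encode the partners of the PER proteins, had log2 changes of 0.27 (adjusted p = 0.47) and 0.25 (adjusted p = 0.26) in soleus.

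Genes known as clock outputs in many tissues gave 0 calls of 8 in each muscle with limma, beside 9.29% of all genes in soleus and 0.00815% in quadriceps. At an unadjusted p under 0.05, 1 of 8 was higher and 1 of 8 lower in soleus, near the 12.9% and 8.77% of all genes there, and 0 in quadriceps, where 3.97% of all genes were higher and 2.24% lower. Their median log2 change was 0.002 in soleus and -0.12 in quadriceps. Por, which supplies electrons to cytochrome P450 enzymes, had a log2 change of -0.37 in soleus (adjusted p = 0.12), Tspan4, a tetraspanin, one of 0.33 (adjusted p = 0.22) and Wee1, a cell cycle kinase, one of 0.31 (adjusted p = 0.57). Of 7 clock-controlled genes described in muscle, 0 rose and 2 fell in soleus (median -0.28), where 7.06% of all genes rose and 2.23% fell. In quadriceps limma called 0 of 7 (median -0.24), beside 0.00815% of all genes higher and 0% lower, and 0 of 7 at an unadjusted p under 0.05, beside 3.97% higher and 2.24% lower. Slc2a4, the insulin-responsive glucose transporter, held 6782, 7163, 8774 and 7229 in Myc-labelled soleus, against 10233, 9917 and 10056 in controls. It fell by 0.43 on the log2 scale (SE 0.10, adjusted p = 0.0099) and was called in all 18 alternatives run. Tbc1d1, which controls the movement of that transporter, averaged 232 ± 40.3 in Myc-labelled (SD, n = 4) and 497 ± 229 in control soleus (SD, n = 3). It fell by 1.02 on the log2 scale (adjusted p = 0.029), but control replicate 2, at 759.5, lay far above the other controls, and without it the log2 change was -0.67 (adjusted p = 0.061). The call was also lost without Myc-labelled replicate 1 (0.084), 2 (0.058) or 4 (0.098) and without both Myc-labelled replicates 3 and 4 (0.14). Tcap, a Z-disc protein, had a log2 change of -0.28 (adjusted p = 0.24).

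Per1 and several other clock genes also respond to glucocorticoids and fasting, so 14 genes of that response were examined. None was called in either muscle by limma, beside 9.29% of all genes in soleus and 0.00815% in quadriceps. In soleus 3 of 14 were higher at an unadjusted p under 0.05, where 12.9% of all genes were, and 0 were lower, where 8.77% were (median 0.09). In quadriceps 2 of 14 were higher and 0 lower (median 0.29), beside 3.97% and 2.24% of all genes. Mt2, a metallothionein, held 460.4, 329.8, 668 and 444 in Myc-labelled soleus and 234, 191 and 370 in control soleus (log2 change 0.85, adjusted p = 0.083). Angptl4, an inhibitor of lipoprotein lipase, held 173, 201, 212 and 248 in Myc-labelled soleus, against 124, 77.6 and 12.9 in controls (log2 change 2.01, adjusted p = 0.19). Mt1, another metallothionein, had a log2 change of 0.54 (adjusted p = 0.12).

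Among the fibre and tendon sums, the groups did not overlap for the sum of Acta1, Ckm, Des and Ttn in soleus or for that of slow fibre markers in quadriceps. Taken alone, Ckm and Des did overlap in soleus. Tendon sums and fast fibre sums overlapped between groups in both muscles, and slow fibre sums did in soleus. In soleus 10 fast fibre markers summed to 439468 to 701106 in Myc-labelled and 667467 to 702850 in control libraries. Of these, 1 of 10 fell (Mylpf, -0.47, limma, adjusted p = 0.010), beside 2.23% of all genes. For slow fibre markers 0 of 8 were called in soleus, beside 9.29% of all genes in either direction. All markers of both fibre lists, and all 7 tendon markers, were above 0 in every library. At an unadjusted p under 0.05, 3 of 7 tendon markers were lower in Myc-labelled soleus, where 8.77% of all genes were, and 0 of 7 in quadriceps, where 2.24% were. In quadriceps the tendon sums were 273 and 3334 in Myc-labelled and 3738 and 1301 in control libraries. Fibroblast markers summed to 5445 to 17134 in Myc-labelled and 13381 to 20276 in control soleus, erythroid markers to 3277 to 7523 in Myc-labelled and 7444 to 7704 in control soleus, and Schwann markers to 2048 to 4991 in Myc-labelled and 1762 to 2663 in control soleus. Whether tendon or fibre content has a part in the soleus clock values was not tested. The fit without Myc-labelled replicates 3 and 4 called Nr1d2 and Tef but not Per3 and Bhlhe40. It has fewer libraries and called 624 genes against 1184 in the main fit, so its calls cannot separate content from library number. The log2 change of Bhlhe40 was -0.49 in that fit, against -0.77 in the main fit, while the fall of Per3 was no smaller. In quadriceps the control library with the higher slow fibre level was replicate 2. Without it the log2 change was -0.89 for Dbp, -0.69 for Nr1d1, -0.74 for Bhlhe40, -0.79 for Per2, -0.53 for Nr1d2 and -0.29 for Per3. The remaining control library still had a slow fibre sum of 25843, against 1795 and 2844 in Myc-labelled libraries, so leaving out replicate 2 does not remove that difference. The part of the slow fibre content in the quadriceps values was not tested. The time of day of sampling was not tested.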

How the data were processed

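RNA sequencing of 7 soleus and 4 quadriceps libraries was grouped by title. The authors deposited a normalised signal for each gene, which the low values show to be reads divided by a size factor: 1 read was worth 0.837 to 1.17 in soleus and 0.831 to 1.16 in quadriceps. Within 0.02 of a read, 90.9% to 93.4% of low values (under 300 reads) were multiples of it, too few to run count tests. STAR 2.7.8a, DESeq2, Partek, mm10 and mm39 are named, without a role, per the submitters' processing notes. Limma 3.58.1 (R 4.3.3, statmod 1.5.0) was fitted to log2(value + 1) with trend and robust moderation, in each muscle alone and, for the difference between muscles, over 11 libraries treated as independent. The log2 scale with this pseudocount understates changes of low genes. A gene was kept when 3 libraries in soleus, or 2 in quadriceps, reached 10. Adjustment ran over all genes kept, and intervals are 95%. The fits were tested on simulated data. All replicates were more different than sampling noise allows and entered separately. The clock genes, gene lists and tests were chosen with earlier results of these data known. Genes named are the 10 clock genes, Myc, list members called or among the 3 of smallest p in soleus, opposite-strand neighbours and nearest profiles. Cry1, Cry2, Camta1 and Mylpf were named after their values were seen. A result on the other clock loop genes is not reported here. Alternatives were other scalings, limma-voom, pseudocounts, filters, no robust moderation, a replicate block and left-out libraries. Limma-voom was run on estimated reads, the values divided by the worth of 1 read, which are not exact counts. Promoter windows come from RefSeq (GRCm38.p6) and gene overlaps from GENCODE annotation of the same build, which may not be the build the authors used.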

Additional observations from a re-analysis of the deposited data

How the results depend on the processing

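No clock gene reversed direction in soleus under its 18 alternatives. The 2 soleus clock calls became 0 with library-size scaling, 1 with limma-voom, 1 with no filter and 1 in the fit over 11 libraries, and 0 to 2 with a replicate left out (0 without Myc-labelled replicate 1 or control replicate 2). Soleus genes called were 624 without both Myc-labelled replicates 3 and 4 and 773 (without control replicate 2) to 1015 with 1 replicate left out, against 1184. In quadriceps, genes called were 0 with library-size scaling, 94 in the fit over 11 libraries, and 3 (without control replicate 2) to 106 (without Myc-labelled replicate 2) with a replicate left out, against 1; clock genes called were 0 to 1. Between muscles, 4 genes were called without robust moderation and 0 to 17 (without quadriceps control replicate 1) with a library left out, against 0. With a replicate left out of quadriceps, 1 group is a single library that is assumed to vary like the other group, and log2 changes ran from -0.023 to 0.054 for Per1, -0.66 to 0.42 for Arntl, -0.036 to 0.35 for Clock, -0.22 to 0.079 for Tef and -0.78 to 0.18 for Tbc1d1, and Tef was 0.025 with quantile normalisation. The difference between muscles ran from -0.31 to 0.14 for Per3, -0.075 to 0.31 for Clock, -0.23 to 0.58 for Nr1d1, -0.20 to 0.21 for Nr1d2 and -0.22 to 0.10 for Bhlhe40, and Nr1d2 was -0.0088 with library-size scaling. The soleus log2 difference in the Dbp to Arntl ratio ran from -0.45 to 0.74 with a replicate left out, and the quadriceps one was 0.051 with Tef in place of Dbp. The causes were not tested.

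Same-numbered soleus libraries deviated together with correlations of -0.01, 0.03 and 0.19. Myc-labelled soleus replicate 1 correlated best with control replicate 2 (0.18), and replicates 2 and 3 with their own number. In quadriceps the value was 0.14, but centring 2 libraries a group fixes its size for every pairing. Whether equal numbers mark paired samples cannot be decided from these values. The fit with the replicate number as a block used only numbers present in both groups, so it left out Myc-labelled soleus replicate 4. It called 1193 soleus genes, 3 soleus clock genes and 4 quadriceps genes. Tef and Bhlhe41 in soleus each had an adjusted p of 0.043 (limma). The soleus Dbp to Arntl difference was -0.45, the same as without that replicate and with no block. The edgeR and DESeq2 alternatives were not run, because whole reads could not be recovered for nearly all genes. Arntl, at 14.8 normalised reads in its lowest library, is the clock gene whose values depth limits most.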
